A study of Homo sapiens with 12 samples.

Results

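SRM encodes spermidine synthase, and its level was examined in HuH-7 cells, a human hepatoma line of hepatocyte origin, after transfection of a miR1908-5p mimic or inhibitor. It was measured by a single probe set of an Affymetrix human gene array, and it is 1 of the 14884 genes named on that array. The gene was chosen by its lower value on the mimic arrays, so its difference between the mimic and the mimic control is given below as a description without a test.

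Cells were kept in low-glucose medium with serum and transfected by lipid reagent with 1 of 4 synthetic oligonucleotides for 72 h, at 9 nM by the sample labels, while the methods state a slightly higher concentration. The mimic is a double-stranded copy of the microRNA, and the mimic control is its matching oligonucleotide coupled to the dye Dy547. The inhibitor is a hairpin that binds the endogenous microRNA, and the inhibitor control is a matching hairpin coupled to the same dye, whereas the labels name no dye for the mimic or the inhibitor. Each of the 4 treatments was carried out on 3 separate occasions, which gave 12 arrays, and all of them come from a single cell line. Values are log2 levels, so that a difference of 1 is a doubling.

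Spermidine is a polyamine, a small positively charged molecule that binds RNA and DNA and that growing cells need. Ornithine decarboxylase (ODC1) makes putrescine, S-adenosylmethionine decarboxylase (AMD1) makes the aminopropyl donor, spermidine synthase joins them to give spermidine, and spermine synthase (SMS) adds a further aminopropyl group to give spermine. In the liver polyamine synthesis is known for its rise when the organ regrows after partial removal. Spermidine also donates the group that turns a lysine of the translation factor eIF5A into hypusine. The transcription factor MYC is known to raise the transcription of several genes of growth, SRM and ODC1 among them, through the E-box CACGTG.

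The microRNA and the start of the gene are shown because the first was the agent transfected and the second holds the binding motif of the transcription factor whose level is compared with that of SRM below. Sequences are those of RefSeq on GRCh38.p14, and the microRNA lies at chr11:61815209-61815229 on the minus strand. Capitals in the microRNA mark its seed, bases 2 to 8, which is the part that pairs with target transcripts.
hsa-miR-1908-5p: cGGCGGGGacggcgauugguc
The SRM gene spans 5430 bases at chr1:11054589-11060018 and is read from the minus strand. The 250 bases before its start, chr1:11060019-11060268, are printed in the direction of transcription with the E-box in capitals.
SRM upstream: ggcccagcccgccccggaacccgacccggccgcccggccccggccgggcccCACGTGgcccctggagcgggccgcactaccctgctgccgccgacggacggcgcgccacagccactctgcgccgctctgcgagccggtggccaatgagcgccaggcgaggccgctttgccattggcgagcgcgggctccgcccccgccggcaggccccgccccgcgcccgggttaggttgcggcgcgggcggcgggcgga
This stretch holds the palindromic motif CACGTG once, 199 bases before the start, and the motif reads the same on both strands. Of 35116 such stretches in the RefSeq table, 2228 (6.34%) hold it at least once. The stretch is 82% G or C, against a median of 58%, and of the 590 stretches at or above that content 7.12% hold the motif. Of the other synthesis genes, ODC1 holds it in 1 of its 2 listed stretches, and AMD1 (3 stretches) and SMS (1 stretch) hold it in none. A match in the letters is a description of the sequence and no evidence of binding. No 3′ UTR sequence was used here, so sites for the seed in the SRM transcript were not searched.

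The arrays carried the transcripts of hepatocytes. Of the defining hepatocyte markers, albumin (ALB) lay between 12.84 and 13.11 and alpha-fetoprotein (AFP), a product of fetal liver and hepatoma cells, between 12.69 and 13.21 on the 12 arrays. Another 6 (APOA2, APOB, TTR, TF, FGA and FGB) lay between 11.41 and 12.68, and the apolipoprotein APOA1 between 6.84 and 8.08. Markers listed for other cell types were not all dim: the endothelial LYVE1 lay between 3.04 and 3.87 and PECAM1 between 5.70 and 6.82, the macrophage CD14 between 4.22 and 5.06 and CD68 between 7.22 and 8.82, the biliary KRT19 between 5.69 and 7.04, and the mesenchymal VIM between 8.0 and 9.34. Of the 12 hepatocyte markers listed 9 were named, and 7 were higher with the mimic than with its control, 2 of them (APOA2 and FGB) at an unadjusted p under 0.05, whereas 54.8% of all named probe sets were lower with the mimic and 4.78% were under that threshold. Of the 12 markers listed for other cell types 6 were named, with lower means in the mimic arrays for 4 and none at that threshold. The part of these markers in the SRM values was not tested. Values were spread less widely over the probe sets on the mimic and mimic control arrays of occasion 3 (SD 1.95 and 1.98) than on the other 10 arrays (2.02 to 2.06).

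SRM stood high and close together in 9 of the 12 arrays and lower in the remaining 3, which were those of the mimic. With the inhibitor SRM measured 10.44, 10.42 and 10.31 on the 3 occasions. With the inhibitor control it measured 10.15, 10.24 and 10.14. With the mimic control it measured 10.37, 10.31 and 10.01, and with the mimic 8.47, 9.48 and 8.95. Every mimic array therefore lay below every array of the other 3 groups, and the mimic arrays were also the farthest apart. The group means were 10.39 ± 0.070 for the inhibitor, 10.23 ± 0.20 for the mimic control, 10.17 ± 0.054 for the inhibitor control and 8.97 ± 0.51 for the mimic (SD, n = 3 each). In this order the mimic control and the inhibitor control overlapped, as did the inhibitor and the mimic control. The small number of arrays limits the precision of each mean.

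**Figure D1:**
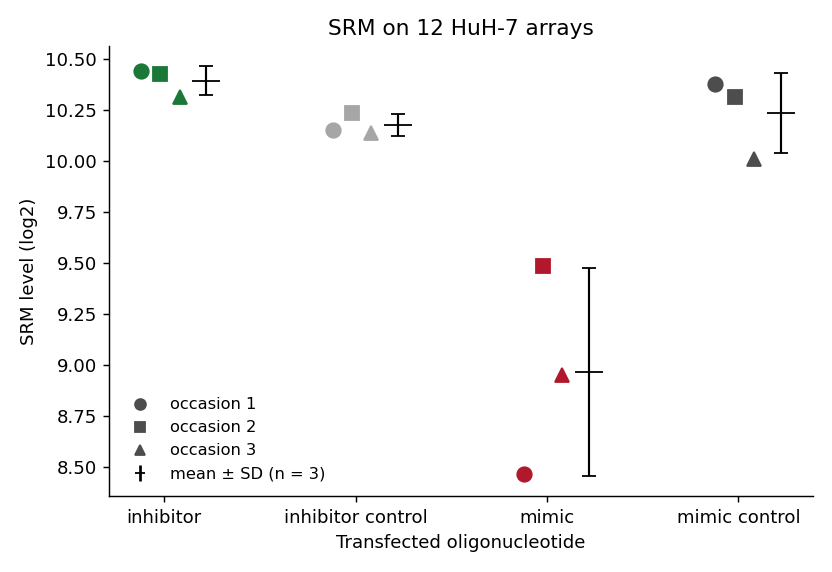
SRM level (log2, vertical axis, which does not start at 0) on each of the 12 arrays, by oligonucleotide (horizontal axis). Symbols mark the occasion, bars the mean ± SD (n = 3), and the mimic arrays at 8.47 to 9.48 lie below the other 9 arrays at 10.01 to 10.44.

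Among the 16098 named probe sets SRM was among the brighter ones. Its mean over the 12 arrays was 9.94, against a median of 5.82, and 2.03% of named probe sets were brighter, which put it at rank 327. Its rank by level was 207 with the inhibitor, 248 with each of the control oligonucleotides and 919 with the mimic. On single arrays it ranked between 199 and 300 in the 9 arrays without the mimic, and at 1635, 578 and 825 in the mimic arrays of occasions 1, 2 and 3. Levels of different probe sets also depend on how well each probe binds, so these ranks order signals and not transcript numbers.

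The spread of SRM among replicates depended on the group. Of the 528 named probe sets with a mean level of 9.5 or more, 42 had a larger SD than SRM in the mimic arrays, where the median SD was 0.19. In the mimic control 205 of them had a larger SD than SRM, in the inhibitor 438 and in the inhibitor control 492. SRM was thus among the more variable bright probe sets with the mimic and among the steadier ones in both inhibitor arms.

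The difference between the mimic and its control was -1.27 on the log2 scale (standard error 0.217), so that SRM stood at 41.6% of its control level, 2.4-fold lower. This was the 4th lowest of the 16098 named probe sets and the 57th lowest of all 53617, most of which were not named with 1 symbol. Among the 528 bright named probe sets it was the third lowest, after the actin-binding calponin CNN2 (-1.40) and the endoplasmic reticulum protein ERP27 (-1.40). The next named probe sets in rank on either side were ERP27, with a standard error of 0.695, and CREB3L3, which encodes a membrane-bound regulator of lipid genes in liver (-1.22, standard error 0.44). These standard errors take no account of the occasion. With the occasion as a block in limma the unadjusted p of ERP27 was 0.00013, against 0.0686 without it. That of CREB3L3 was 0.00065 with the block and 0.0175 without it. Their adjusted p values with the block were 0.114 and 0.217. At the unadjusted threshold of 0.05, 2.41% of all probe sets were lower and 2.2% higher with the mimic, and 4.62% had all mimic arrays below all control arrays. After Benjamini-Hochberg adjustment over all probe sets 0.0149% passed in limma. The median difference of the named probe sets was -0.02. Fewer cells expressing SRM and less SRM RNA per cell cannot be told apart in RNA from whole cultures.

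**Figure D2:**
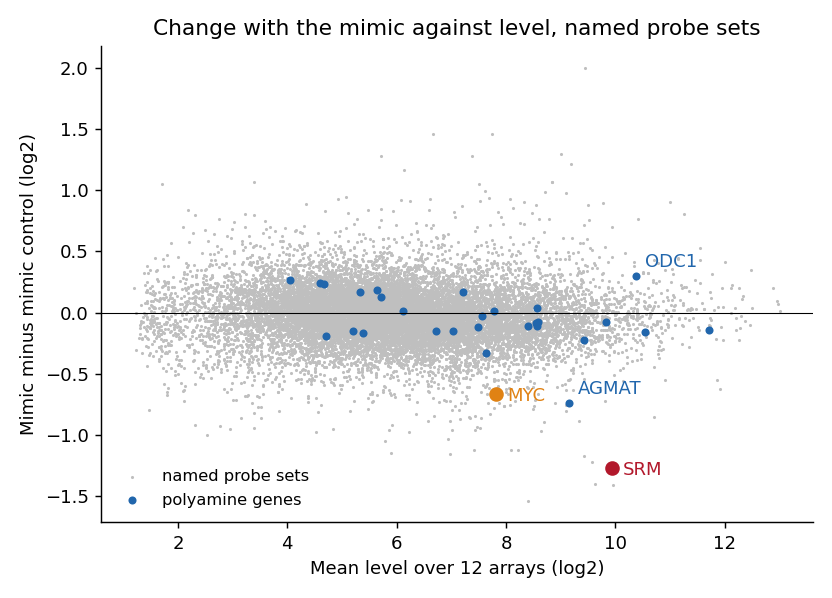
Difference between the mimic and its control (log2, vertical axis) against the mean level over 12 arrays (log2, horizontal axis) for the named probe sets (grey), the other polyamine genes (blue), MYC and SRM. SRM lies at -1.27 and a mean level of 9.94, at the lower edge of the cloud, while ODC1 lies at 0.30 and AGMAT at -0.74.

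The size of the fall differed between occasions. On occasion 1 SRM was lower than in its control by a difference of -1.91, the second lowest of the named probe sets. On occasion 2 the difference was -0.83, at rank 109 from the lowest, and on occasion 3 it was -1.06, at rank 149. The fold therefore ran from 1.78 to 3.75, and SRM was lower with the mimic on 3 of 3 occasions. Leaving out occasion 1 gave -0.94 and leaving out mimic replicate 2 alone gave -1.52, the extremes over all alternatives.

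With the inhibitor SRM was slightly higher, and the difference did not pass the test. The inhibitor arrays lay above the inhibitor control arrays by a mean of 0.22 on the log2 scale (standard error 0.217, 95% confidence interval -0.26 to 0.69), with an unadjusted p of 0.333 and an adjusted p of 1 in limma. All 3 inhibitor arrays were above all 3 control arrays, as for 3.71% of all probe sets. The exact two-sided permutation test over the 6 arrays gave p = 0.1, the smallest p that 3 arrays against 3 allow. By occasion the difference was 0.29, 0.19 and 0.18. It ranked 1524 from the highest among the named probe sets, 9.46% of which had a larger difference. The standard error comes from a spread shared by the 4 groups, which holds the scatter of the mimic arrays. The methods' test, which uses the 6 arrays alone, gave an unadjusted p of 0.0128 and an adjusted p of 1. At the unadjusted threshold 2.92% of all probe sets passed with the inhibitor in limma, and 0.00187% after adjustment.

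Between the occasions no difference in SRM passed the test. In a model of group and occasion the occasion effects spanned 0.26 on the log2 scale (adjusted p = 0.51 in limma), while 22.7% of all probe sets were below an unadjusted p of 0.05 and 4.97% below an adjusted one. The SRM means of occasions 1, 2 and 3 were 9.86, 10.11 and 9.85 over the 4 arrays each. Over the 3 arrays without the mimic they were 10.32, 10.32 and 10.15, and the occasion test without the mimic arrays gave a span of 0.17 and an adjusted p of 0.6.

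The enzymes on either side of SRM in polyamine synthesis did not show a like fall. ODC1, which makes the putrescine that SRM uses, measured 10.02, 10.52 and 10.42 with the mimic and 9.73, 10.16 and 10.17 with its control. ODC1 was thus higher with the mimic on each occasion, the opposite side from SRM, and the mean difference of 0.30 did not pass the test (standard error 0.189, adjusted p = 1 in limma). With the occasion as a block in limma its unadjusted p was 0.0192 and its adjusted p 0.519. Leaving out single arrays, which breaks the pairing by occasion, moved the difference between 0.15, without mimic control replicate 1, and 0.45, without mimic replicate 1. When a whole occasion was left out it stayed between 0.27 and 0.32. AMD1, which makes the aminopropyl donor shared by SRM and SMS, measured 10.61, 10.69 and 10.12 with the mimic and 10.79, 10.84 and 10.27 with its control. Its difference was -0.16 (standard error 0.229, adjusted p = 1 in limma), and with the occasion as a block its unadjusted p was 0.204. AMD1 was the lower with the mimic on each occasion, and its difference stayed between -0.16 and -0.15 when a whole occasion was left out. Without mimic replicate 3 alone it was 0.02, but there the low control of that occasion, at 10.27, was kept. SMS, which uses the spermidine that SRM makes, measured 10.21, 10.00 and 9.37 with the mimic and 10.15, 10.12 and 9.54 with its control, a difference of -0.08 (standard error 0.239, adjusted p = 1 in limma). Dropping single arrays, which breaks the pairing, moved the SMS difference from -0.27 without mimic control replicate 3 to 0.17 without mimic replicate 3. When a whole occasion was left out it stayed between -0.15 and -0.03. For AMD1 and SMS the third occasion was the lowest in both groups, a pattern that SRM showed in the control but not with the mimic.

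AGMAT, named for an agmatinase activity that would yield putrescine from agmatine, was the other synthesis gene with a low level in the mimic arrays. It measured 8.38, 9.14 and 8.13 with the mimic and 9.38, 9.55 and 8.94 with its control. The groups overlapped, but on each occasion the mimic array was the lower one. The mean difference was -0.74 (standard error 0.308), with an unadjusted p of 0.0341 and an adjusted p of 1 in limma. With the occasion as a block the unadjusted p was 0.000334 and the adjusted p 0.17, and without occasion 1 the unadjusted p was 0.224. With the inhibitor AGMAT differed by -0.04 (standard error 0.308).

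The proteins that control ornithine decarboxylase differed little beside SRM. The antizymes OAZ1, OAZ2 and OAZ3, which bind ODC1, differed by -0.14, 0.13 and -0.19 with the mimic. The antizyme inhibitors AZIN1 and AZIN2, which release ODC1, differed by -0.11 and 0.26. None of the 5 passed the unadjusted threshold, and AZIN2, at 4.10 to 4.32 with the mimic and 3.85 to 4.05 with its control, was the nearest, with an unadjusted p of 0.0876, at a dim level.

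Polyamines are broken down after acetylation by SAT1, the spermidine/spermine acetyltransferase. SAT1 measured 9.16, 9.34 and 9.17 with the mimic and 9.48, 9.41 and 9.44 with its control, without overlap. All mimic arrays lay below all control arrays for 2 of the 28 polyamine genes, SAT1 and ATP13A3, and above them for AZIN2. Among the 16098 named probe sets 888 lay apart below and 697 above. The SAT1 difference of -0.22 was small beside that of SRM (standard error 0.115, adjusted p = 1 in limma). The oxidases SMOX and PAOX, which act on spermine and on acetylated polyamines, differed by 0.17 and 0.18, and SAT2, a relative of SAT1, by 0.04. Of the genes of hypusine formation, which use the product of SRM, EIF5A differed by -0.17, EIF5A2 by 0.16, the deoxyhypusine synthase DHPS by -0.03 and the hydroxylase DOHH by -0.15. The lowest unadjusted p among these 4 was that of DOHH, 0.293.

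Among the lysosomal and endosomal transporters of the ATP13A family, ATP13A2, which exports polyamines from lysosomes, differed by 0.01, ATP13A3 by -0.11 and ATP13A4 by 0.24. In the methionine cycle, which supplies S-adenosylmethionine and recovers the methylthioadenosine that SRM releases, the lowest p values with the mimic were those of AHCY (-0.33, standard error 0.206), which cleaves S-adenosylhomocysteine, and GNMT (0.23, standard error 0.191), a methyltransferase of liver. The phosphorylase MTAP, which acts directly on that methylthioadenosine, differed by -0.15, and the salvage enzyme APIP by -0.12, and the adjusted p of all 4 was 1 in limma. With the occasion as a block AHCY had an unadjusted p of 0.0279 and an adjusted p of 0.568.

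Counted together, 28 of the 40 other polyamine genes listed had a named probe set. With the mimic 17 (60.7%) were lower and 11 higher than in the control, against 54.8% of all named probe sets lower. Their median was -0.08 and their range ran from -0.74 to 0.30. AGMAT alone (3.57%) fell below the unadjusted threshold in limma, against 4.78% of all named probe sets in either direction. None passed after adjustment. With the occasion as a block 3 of the 28 were under 0.05, AGMAT and AHCY lower and ODC1 higher, in a fit where 7.75% of all probe sets, named or not, were. The share of the named ones alone was not computed for that fit. With the inhibitor 14 of the 28 were lower and 14 higher, with a median of 0.003, against 44.2% of all named probe sets lower. GNMT alone (3.57%) was under 0.05 there, against 1.8% of all named probe sets in either direction. It was lower by a difference of -0.48 with an unadjusted p of 0.0291 in limma, at a dim level of 4.39 ± 0.40 with the inhibitor and 4.86 ± 0.14 with its control.

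**Figure D3:**
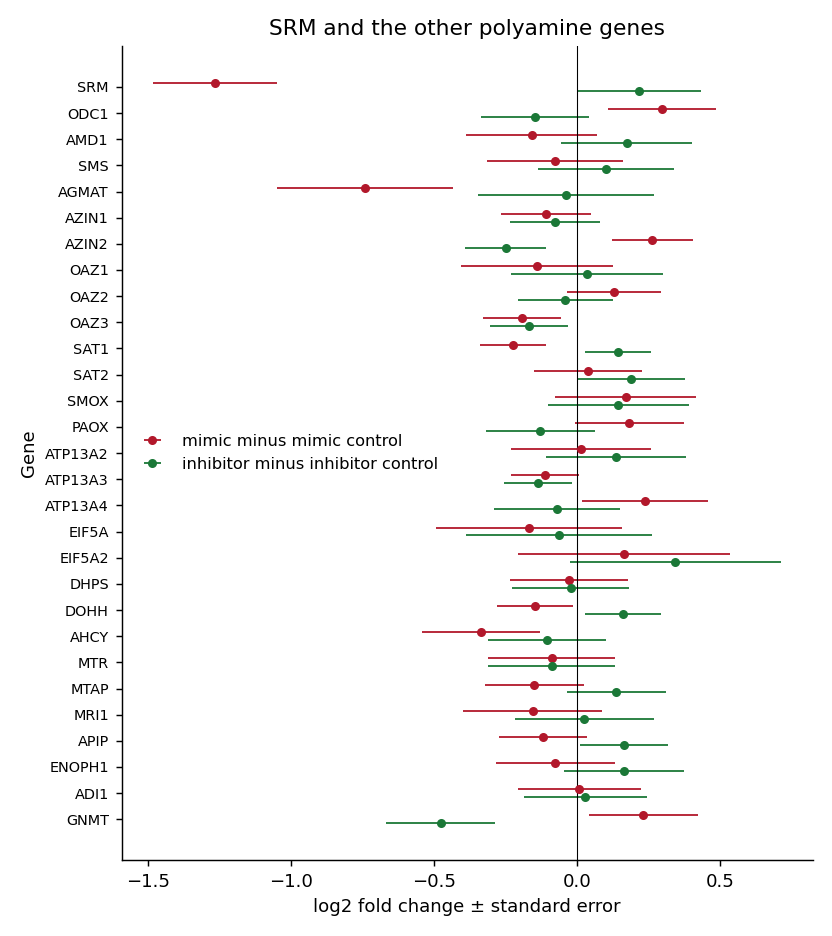
Differences of SRM and the 28 other polyamine genes (log2, horizontal axis) with the mimic (red) and the inhibitor (green), each against its own control, with the standard error of the 4-group model. For SRM the red point is at -1.27 and the green point at 0.22, and the other genes lie between -0.74 and 0.34.

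The genes beside SRM on chromosome 1 did not share its fall. EXOSC10, a nuclease of the RNA exosome 6600 bases from SRM, differed by -0.11 with the mimic (standard error 0.166) and by -0.24 on its other, dimmer probe set. MASP2, a protease of complement 7350 bases away on the other side, differed by -0.18 (standard error 0.165). TARDBP, which encodes the RNA-binding protein TDP-43, differed by -0.17, and the kinase gene MTOR by -0.05, each with an adjusted p of 1 in limma.

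MYC was lower with the mimic by an unadjusted test alone. It measured 6.54, 7.61 and 7.41 with the mimic and 7.88, 7.77 and 7.89 with its control. The lowest MYC and the lowest SRM fell on the same array, mimic replicate 1, and the highest mimic value of each on mimic replicate 2. The group means were 7.19 ± 0.57 and 7.85 ± 0.06 (SD, n = 3 each), a difference of -0.66 (standard error 0.234). Its unadjusted p was 0.0158 and its adjusted p 0.946 in limma. By occasion the MYC difference was -1.34, -0.16 and -0.48, and for both genes the difference was widest on occasion 1 and narrowest on occasion 2. Without mimic replicate 1 it was -0.34, with an unadjusted p of 0.0575 in limma. Leaving out the whole of occasion 1 gave a MYC difference of -0.32 and an unadjusted p of 0.167 in limma. The methods' test gave an unadjusted p of 0.117. The unadjusted p of MYC was under 0.05 in 19 of 22 alternatives. With the inhibitor MYC measured 8.19, 8.39 and 7.99 against 8.07, 8.10 and 8.03, a difference of 0.13 (standard error 0.234, adjusted p = 1 in limma).

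Once each group's mean was removed, SRM and MYC deviated together on the mimic arrays and showed little relation elsewhere. Over the 12 arrays Pearson's r was 0.83, which did not pass an exact two-sided permutation test within groups (p = 0.123, 1296 arrangements), and Spearman's rho was 0.44 (exact p = 0.287). This was the only relation between a pair of genes that was tested, and its p values were not adjusted. The pair was set together with the choice of SRM, which was made with earlier results of these data known. The mimic arrays held 84.8% of the squared deviations of SRM and 87.5% of those of MYC. Without the 2 arrays farthest from the median in MYC, mimic replicates 1 and 2, r was 0.11 (exact permutation p = 0.676) and rho 0.03, and without all 3 mimic arrays r was 0.17 over 9 arrays (exact permutation p = 0.583). The relation thus rested on those arrays. With the means of the occasions removed as well, r was 0.82 and rho 0.77, with p = 0.0332 and p = 0.0386 by the same permutation. Shuffling within groups does not keep such deviations balanced within occasions, so these 2 p values are not exact and no conclusion is drawn from them. Without any means removed r was 0.92 and rho 0.71 over the 12 arrays, values that hold the difference between the groups for which SRM was chosen.

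**Figure D4:**
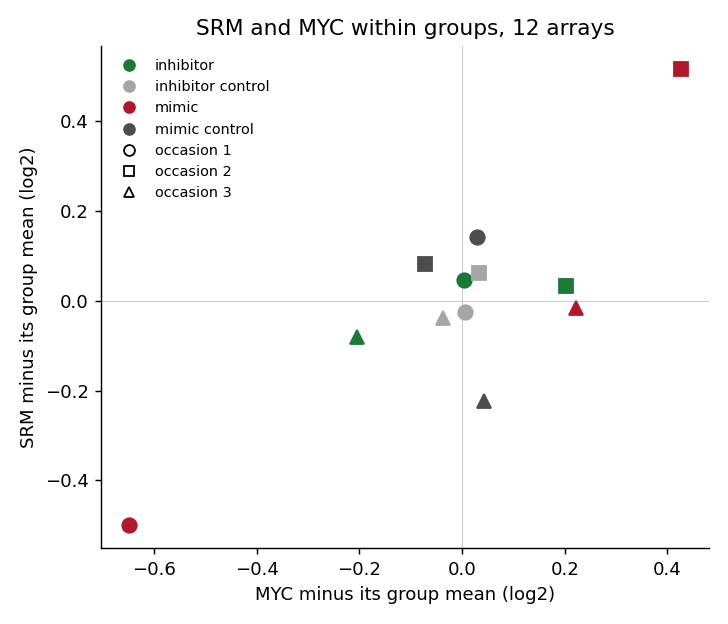
Deviation of SRM from its group mean (log2, vertical axis) against that of MYC (log2, horizontal axis) on the 12 arrays, by group (colour) and occasion (symbol). Mimic replicates 1 and 2 lie at the far corners, at -0.50 and 0.52 for SRM, and the other 10 arrays lie near the centre with r = 0.11.

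The genes of the MYC network and those known to respond to MYC were mostly lower with the mimic, as SRM was. Only MYC and EXOSC5 passed even the unadjusted threshold in the model without a block. The network list holds MYC itself and also repressors, so a count of lower members has no single direction for the action of MYC. Of 10 named genes of the MYC network, MYC among them, 9 were lower with the mimic (median -0.21), and all 10 were higher with the inhibitor (median 0.08). Of these only MYC was under the unadjusted threshold with the mimic. MLXIP, a glucose-responsive relative of the network, differed by -0.43, MXD3, a repressor of the network, by -0.40, MAX, the partner of MYC on DNA, by -0.23 and MGA, a further partner of MAX, by -0.21. Of 35 named MYC-responsive genes, SRM not counted, 28 were lower with the mimic (median -0.17) and 25 higher with the inhibitor (median 0.04), against 54.8% of all named probe sets lower with the mimic and 44.2% lower with the inhibitor. EXOSC5, a subunit of the RNA exosome, was the 1 gene of the 35 (2.86%) under 0.05, against 4.78% of all named probe sets in either direction. EXOSC5 measured 7.22, 7.90 and 7.27 with the mimic and 7.94, 8.06 and 8.05 with its control, a difference of -0.55 (standard error 0.175). Its unadjusted p was 0.00889 and its adjusted p 0.894 in limma. The unadjusted p of EXOSC5 was 0.0919 without occasion 1 and 0.0968 without occasion 3 in limma. It was 0.0688 in the methods' test, and under 0.05 in 19 of 22 alternatives. The nucleolar proteins NOLC1 (-0.50, standard error 0.232) and NOP16 (-0.45, standard error 0.212) and the RCL1 protein of ribosomal RNA processing (-0.32, standard error 0.161) had the next lowest p values. With the occasion as a block 6 of the 35 were under 0.05, ODC1 higher and the others lower, against 7.75% of all probe sets, and in the network MLXIP and MXD3 joined MYC. Without mimic replicate 2 there were 7 of the 35, against 6.03% of all probe sets, and without occasion 1 none. The shares among named probe sets alone were not computed for these fits.

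RPS28, a protein of the small ribosomal subunit, was the named probe set whose pattern was most like that of SRM. Likeness was taken as Pearson's r with SRM over the 12 arrays after removal of group means, among the 7361 named probe sets with a mean level of 6 or more, where the median r was 0.10. RPS28 had an r of 0.97, and 0.80 over the 9 arrays without the mimic. It measured 11.10, 11.74 and 11.40 with the mimic and 12.09, 12.13 and 11.91 with its control, low in the same 3 arrays as SRM and in the same order among them. Its difference was -0.63 (standard error 0.161), with an unadjusted p of 0.00228 and an adjusted p of 0.687 in limma. Leaving out occasion 1 gave an unadjusted p of 0.0599 and a difference of -0.45.

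The next in likeness were PHGDH, the first enzyme of serine synthesis (r = 0.92, and 0.88 without the mimic arrays), TIGD5, a gene derived from a transposon (0.92 and 0.77), the pseudogene HNRNPA1P10 (0.90 and 0.55), whose probes may also read its parent gene, and ATIC, which completes purine ring synthesis (0.90 and 0.60). Their differences with the mimic were -0.11, 0.14, -0.22 and -0.21, each smaller in size than that of SRM, with TIGD5 in the other direction. Their likeness to SRM in scatter follows from how they were picked and is no separate result. MYC ranked 20 of the 7361 by this measure, and 4120 when the mimic arrays were left out. The most opposite were the actin regulator ENAH (-0.84), the endosomal protein GRIPAP1 (-0.81) and vimentin, VIM (-0.81), an intermediate filament of mesenchymal cells. VIM measured 9.34, 8.41 and 8.94 with the mimic, highest where SRM was lowest, and its difference of 0.23 did not pass the test (standard error 0.226, adjusted p = 1 in limma). Whether cells rich in VIM had a part in the SRM values was not tested.

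**Figure D5:**
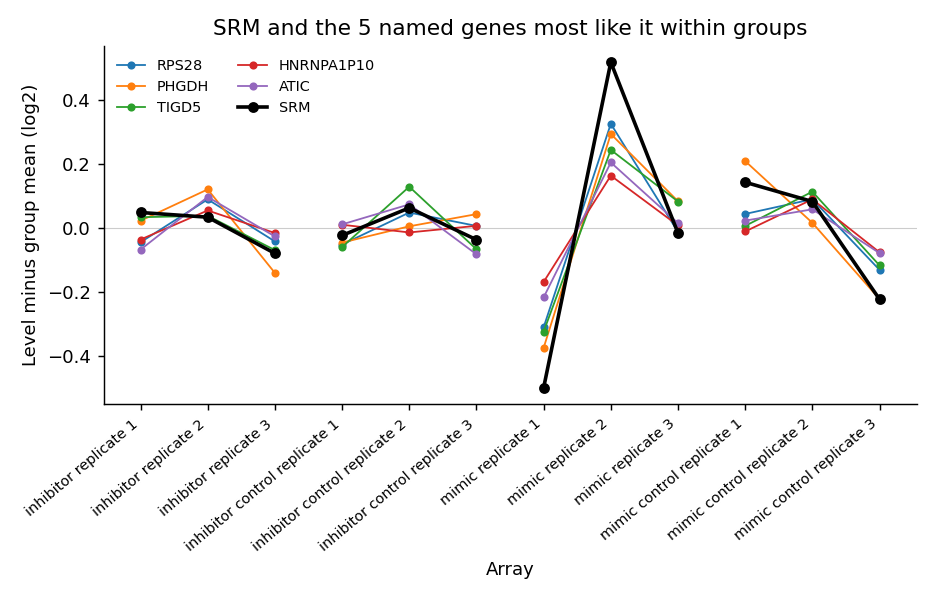
Deviation from the group mean (log2, vertical axis) on the 12 arrays (horizontal axis) for SRM (black) and the 5 named probe sets with the highest r with it. All 6 are lowest in mimic replicate 1 and highest in mimic replicate 2, where SRM deviates by -0.50 and 0.52.

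Among the polyamine genes themselves r with SRM after removal of group means was above 0 for 25 of 28, with a median of 0.32. The median over the 7361 named probe sets with a mean level of 6 or more was 0.10, and the share of them above 0 was not computed. The highest values were those of DOHH (0.69), SAT1 (0.66) and AGMAT (0.65), while ODC1 had 0.38, AMD1 0.32 and SMS 0.09. Over the 9 arrays without the mimic these became -0.81, -0.12, 0.72, -0.37, 0.74 and 0.81 in the same order of genes. SMS and AMD1 were thus closer to SRM in scatter where the mimic was absent, but this was not particular to them. AZIN1 (0.96), OAZ2 (0.90), OAZ1 (0.85) and MTR (0.85) had higher values there, while SAT2 (-0.79), PAOX (-0.77) and SMOX (-0.70) were negative. These values are a description over few arrays that share 3 occasions.

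With no means removed, the genes nearest to SRM were RPS28 (r = 0.99), DCAF4L2 (0.96), the signal peptidase subunit SEC11A (0.95), DDA1, a component of a ubiquitin ligase (0.95), and GPATCH4 (0.94). This ranking holds the difference between groups on which SRM was chosen, so all of them were lower with the mimic, by differences of -0.63, -0.41, -0.65, -1.17 and -0.41. DDA1 was the only one with an adjusted p under 0.05 in limma (standard error 0.147, adjusted p = 0.0383), and its 3 mimic arrays at 8.48, 8.71 and 8.36 did not have the order of those of SRM. That call was lost on leaving out any 1 array, where the adjusted p reached 0.236.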

How the data were processed

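The authors hybridized RNA from HuH-7 cultures to 12 Affymetrix human gene arrays and deposited 1 normalized log2 value per probe set, made in Affymetrix Expression Console. Its version and normalization were not given in the sources used here. The deposited log2 values were used as they stand, with no filter. Of 53617 probe sets, 16098 are named with 1 symbol by the platform annotation. The other 37519 were treated as having no name, and any with several symbols were not counted apart. The brightest probe set stands for a gene with several. RefSeq names and sequences are those of GRCh38.p14.

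Groups were taken from the sample labels. Each agent was compared with its own control in limma 3.58.1 (R 4.3.3), in a model of 4 groups over 12 arrays, and p values were adjusted across all probe sets by the Benjamini-Hochberg method. Occasions were compared in a model of group and occasion. The relation of SRM to MYC was tested by exact permutation of the deviations within groups, which is not exact where occasion means were removed as well. The model was tested on simulated data. Those data held no occasion effects, so the check does not bear on the pairing of the real arrays. SRM, the gene lists and the rule for naming genes were chosen with earlier results of these data known, so their counts are no independent support. The rule named SRM, MYC, all members of the synthesis, ornithine decarboxylase control, breakdown and hypusination lists, up to 4 genes with the lowest p with the mimic of each other list, the genes most and least like SRM, and its neighbours in rank and on the chromosome. SEC11A, DCAF4L2, GPATCH4 and DDA1 come from the likeness without removal of means.

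The labels do not say that replicates are separate RNA pools, but the series' design gives 3 distinct occasions, for which the replicate numbers stand. Deviations from the group means correlated at a median of 0.24 for the 18 pairs of equal number and of -0.141 for the 36 pairs of unequal number, and 10 of the 12 arrays correlated best with an array of their own number. The numbers therefore pair the samples. Results were also computed with the number as a replicate block, after quantile normalization or shifting to a common median, without probe sets of a mean under 4, from the 6 arrays of a comparison alone, by the methods' two-tailed equal-variance test, with an intensity trend and robust prior, and without each array or occasion. The number of arrays limits the precision. Primary hepatocyte arrays and protein measurements were not analysed here.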

Additional observations from a re-analysis of the deposited data

How the results depend on the processing

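Over all alternatives the difference of SRM with the mimic stayed between -1.52 and -0.94, that with the inhibitor between 0.18 and 0.26 with an adjusted p of 0.978 or more, and the span between occasions between 0.006 and 0.37 with an adjusted p of 0.382 or more. None of these changed direction or side of the threshold. The p of the correlation of SRM with MYC was under the threshold with the replicate block alone, at r = 0.82 (p = 0.0332 by permutation). That permutation is not exact once occasion means are removed. Leaving out single arrays gave r from 0.43, without mimic replicate 1, to 0.91. Leaving out the 3 mimic arrays was chosen after seeing the data.

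Counts below an unadjusted p of 0.05 moved more. With the mimic 1 polyamine gene was counted, but 3 with the replicate block, 2 in the methods' test, 2 with the intensity trend, and 0 to 2 on leaving out arrays or occasions. The count was 0 without mimic replicate 3, without mimic control replicate 1 or 2, and without occasion 1, where AGMAT lost its call. With the inhibitor the count was 1, but 0 in a model of 6 arrays, 2 in the methods' test, and 0 or 1 on leaving out arrays, with 0 without inhibitor replicate 3, inhibitor control replicate 2, or occasion 1 or 3. Of the MYC-responsive genes 1 was counted, but 6 with the replicate block, 2 each after quantile normalization, without dim probe sets and with the intensity trend, 0 in the methods' test, and 0 to 7 on leaving out arrays or occasions. Over all probe sets the replicate block gave 4154 with the mimic against 2474 and 2418 with the inhibitor against 1567. Without dim probe sets 948 of the 39017 that remained passed with the inhibitor. Leaving out arrays or occasions gave 1070 to 2478 with the inhibitor, the highest without inhibitor control replicate 1.

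After adjustment 8 probe sets passed with the mimic. There were 24 with the replicate block, 4 with a common median, 16 of 39017 without dim probe sets, and 14 with the intensity trend. There were 0 in a model of 6 arrays, 0 in the methods' test, and 0 to 3 on leaving out arrays or occasions. With the inhibitor 1 passed, but 0 with the replicate block, without dim probe sets, in a model of 6 arrays, in the methods' test and with the intensity trend, and 0 to 2 on leaving out arrays or occasions. The cause of these shifts was not tested. Among the genes named in the text, the replicate block brought ODC1, AHCY, MLXIP, MXD3, NOLC1, NOP16 and ERP27 below an unadjusted p of 0.05 with the mimic, and the brighter probe set of CNN2 below the adjusted threshold (adjusted p = 0.0159 against 0.135).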
